A study of Mus musculus with 8 samples.

Results

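Sterols and lipids enter, leave and are sensed by intestinal epithelial cells (IECs) through a small set of proteins. Described here are 6 genes of this kind, out of 309 genes in the day 0 table: the sterol transporters Abcg5, Abcg8, Npc1l1 and Abca1, the lipoprotein gene Apoa1, and the nuclear receptor gene Nr0b2. Of these, Abca1 and Nr0b2 were also among the 128 genes of the day 7 table. The genes were chosen by name, with their values in these libraries already known, because they stood in tables that hold only genes passing the authors' thresholds for a difference between the genotypes. The genotype differences of the same libraries therefore chose them, and these differences are given as a description without a p-value.

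The study asked how the transcriptome of colonic IECs depends on Efhd2, a calcium-binding adaptor protein, before and during colitis induced by dextran sulfate sodium (DSS), a detergent-like polymer given in drinking water. IECs came from Efhd2 f/f Vil1 cre/+ mice, labelled Efhd2-deficient and called Cre-positive here, and from Efhd2 f/f mice, labelled wildtype. Both genotypes carry the floxed allele on both chromosomes, and the villin promoter drives Cre in the intestinal epithelium of the former, so that a control carrying Cre without floxed alleles is not among the groups. Each genotype was sampled untreated (day 0) and on day 7 of the DSS experiment, which makes 4 groups of 2 libraries. The methods state that young adult mice of both sexes were used throughout the study, describe the floxed line and its cross to Vil1-Cre mice, and name a DSS concentration for colitis experiments with these genotypes. Which of these animals were sequenced is not given per library, and the labels do not say whether an animal or a pool gave each library. Libraries go by the numbers in the tables. On day 0 the Cre-positive mice gave libraries 51 and 53 and their Efhd2 f/f controls 50 and 52. On day 7 the Cre-positive mice gave 65 and 71 and the controls 67 and 68.

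ABCG5 and ABCG8 are partner proteins that form one transporter, which returns plant sterols and cholesterol from the enterocyte to the gut lumen. NPC1L1 works in the other direction at the same apical membrane and takes luminal cholesterol up, while ABCA1 loads cellular cholesterol onto apolipoprotein A-I, the product of Apoa1, at the basolateral side. Abca1, Abcg5 and Abcg8 are classical targets of the liver X receptors (LXR), which are activated by oxysterols, and Nr0b2 encodes SHP, a receptor without a DNA-binding domain that is induced by the bile acid receptor FXR and represses other nuclear receptors.

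Each value below is a normalized count, the authors' read count of a gene after scaling between libraries. Differences are on the scale of log2(normalized count + 1), Efhd2 f/f Vil1 cre/+ minus Efhd2 f/f, with the standard error of limma, and for genes with low values this scale makes a change look smaller than it was. A gene was called when limma gave an adjusted p-value under 0.05 over the listed genes of its day and an absolute difference above 1. On day 0, 30.4% of listed genes were called higher and 62.5% called lower, and the libraries of the genotypes did not overlap in 99% of listed genes. On day 7, 77.3% were called higher and 7.81% called lower, and 99.2% did not overlap. All 6 genes were called on day 0, 5 lower and 1 higher, and both genes of day 7 were called, 1 higher and 1 lower. None of these 8 comparisons had overlapping genotypes, which is what nearly every listed gene showed, so nothing is read from these counts. With equal sums over the listed genes in place of the authors' scaling, 30 genes were called higher and 207 lower on day 0, and 5 higher and 7 lower on day 7. Listed genes were chosen for a genotype difference, so their sums can differ through that choice. Equal sums therefore cannot decide between the scalings. Leaving out library 52 left 78 genes called higher and 159 lower on day 0, with all 6 genes among them. In contrast, limma called 0 genes on day 0 without library 50, 51 or 53, where 36 to 61 higher and 75 to 107 lower genes had a difference above 1 and an unadjusted p-value under 0.05, and 0 genes on day 7 without any one of libraries 65, 71, 67 and 68, where 35 to 81 higher and 1 to 7 lower genes did.

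Efhd2 itself stood at 555.5 and 713 in libraries 51 and 53 and at 2663 and 2686 in libraries 50 and 52. It is not in the day 7 table, so a lower level of Efhd2 could not be checked in the libraries of that day. The tables cannot give the depth of a library, because they hold only part of the genes. The labelled cell type could not be checked in full either: of 12 surface colonocyte markers only the water channel gene Aqp8 was in the day 0 table, called lower at 2213 and 3293 in libraries 51 and 53 against 5138 and 6943 in libraries 50 and 52, and none of 10 goblet cell markers was in a table.

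Abcg5 and Abcg8 lay side by side on chromosome 17 (GRCm38) and were both lower in Cre-positive IECs on day 0. The deposited coordinates put Abcg5 (ENSMUSG00000040505) at chr17:84658234-84683011 on the minus strand and Abcg8 (ENSMUSG00000024254) at chr17:84676302-84700333 on the plus strand. In GENCODE release M21 the first transcript models of both genes have 13 exons each and run in opposite directions from starts with 109 bases between them. The stretch between the starts is the shared promoter of the pair, and it is printed 5′ to 3′ on the plus strand of chr17:84683012-84683120, with the letters AGATAA, read on either strand, in capitals as matches to a GATA factor motif.
Abcg5-Abcg8: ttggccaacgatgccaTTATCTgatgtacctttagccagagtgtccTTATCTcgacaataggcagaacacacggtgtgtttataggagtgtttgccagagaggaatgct

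The AGATAA letters occurred in 11.2% of 32544 promoter windows of RefSeq (GRCm38.p6, 250 bases before to 50 after a start). Seen from the start of Abcg5, the matches in the printed stretch lie at -52 and -22. A match of letters is a description and not a binding site.

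Abcg5 had normalized counts of 21.3 and 23.2 in libraries 51 and 53 and of 86.3 and 73.9 in libraries 50 and 52. Each Cre-positive library lay well under each control library, and the libraries of one genotype lay close together. The means were 22.2 ± 1.35 and 80.1 ± 8.73 (SD, n = 2 each), a 3.60-fold lower level and a difference of -1.80 (SE 0.39). Since RNA was taken from bulk fractions, fewer cells that express a gene and less RNA per cell cannot be told apart here or below.

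Abcg8 had 13.2 and 20.5 in libraries 51 and 53, against 69.6 and 60.9 in libraries 50 and 52. The pattern was that of its partner, low in both Cre-positive libraries and higher in library 50 than in library 52. Mean levels of 16.8 ± 5.16 and 65.2 ± 6.17 (SD, n = 2 each) made a 3.87-fold lower level, with a difference of -1.92 (SE 0.41). The per-kb ratio of Abcg5 to Abcg8 was 2.23 and 1.56 in libraries 51 and 53 and 1.71 and 1.68 in libraries 50 and 52, so the ratios of the genotypes overlapped. In both genotypes Abcg5 was the more abundant of the pair per length.

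Reads of the partners could be mixed in a stretch where their spans overlap. The spans share 6710 bases through a longer Abcg8 transcript model, but their exons share only 82 bases, or 3.02% of the exon bases of Abcg5 and 2.19% of those of Abcg8. The sources used here do not state whether counting took strand into account, so reads in the shared bases cannot be assigned. The map of the locus draws this layout.

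**Figure D1:**
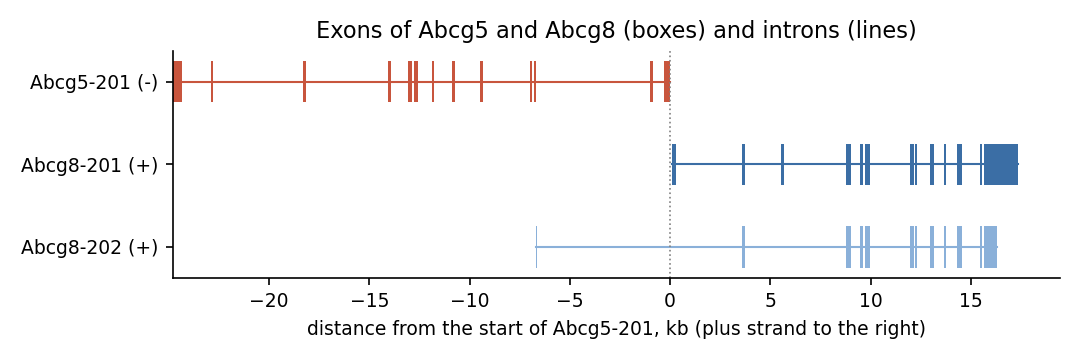
Exons and spans of Abcg5 and Abcg8 drawn to scale against distance in kb from the start of the first Abcg5 transcript, with the direction of transcription. The starts of the first transcripts have 109 bases between them, and the exons share 82 bases.

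Npc1l1 (ENSMUSG00000020447, chr11:6211013-6230143, minus strand), which encodes the importer of dietary cholesterol and the target of ezetimibe, was also lower on day 0. Its values were 7.10 and 6.48 in libraries 51 and 53 and 19.6 and 36.7 in libraries 50 and 52. The Cre-positive libraries were low and close to each other, while library 52 was far above library 50. The genotype means of 6.79 ± 0.438 and 28.1 ± 12.1 (SD, n = 2 each) corresponded to a 4.14-fold lower level and a difference of -1.84 (SE 0.44). With Cre-positive values this low the size of the ratio is uncertain, and with a pseudocount of 10 the difference was -1.15.

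Apoa1 (ENSMUSG00000032083, chr9:46228580-46230466, plus strand), a compact gene of 4 exons for the main protein of high-density lipoprotein, showed the deepest decrease among the 5 genes that were lower on day 0. It had 8.11 and 6.46 in libraries 51 and 53 and 35.2 and 57.3 in libraries 50 and 52. As for Npc1l1, the Efhd2 f/f values were spread and library 52 was the higher one. Means of 7.28 ± 1.16 and 46.3 ± 15.6 (SD, n = 2 each) gave a 6.35-fold lower level and a difference of -2.48 (SE 0.42). The Cre-positive values were again low, which leaves the size of the ratio uncertain, and with a pseudocount of 10 the difference was -1.68. The neighbouring apolipoprotein genes of the same cluster on chromosome 9, Apoc3, Apoa4 and Apoa5, were in neither table and were not analysed here. The nearest listed gene before Apoa1 was Cd3d, 1.24 Mb away.

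**Figure D2:**
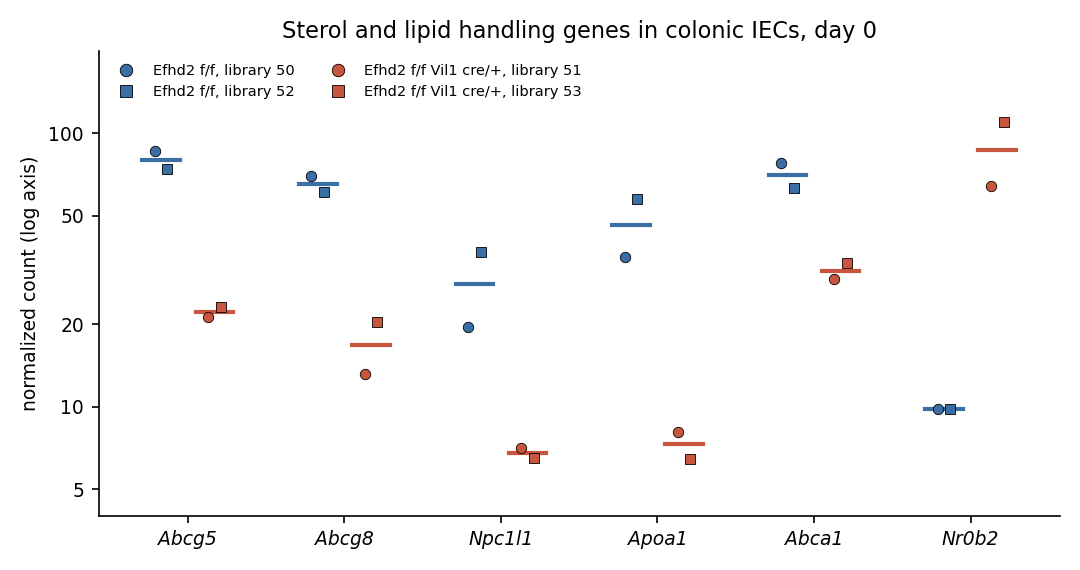
Normalized counts (log axis) of the 6 genes in each of the 4 libraries of day 0, with each point a library and each bar the mean of 2. The 5 genes on the left are lower in the 2 Cre-positive libraries, and Nr0b2 is higher, at 63.9 and 109.7 against 9.80 and 9.78.

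Abca1 (ENSMUSG00000015243, chr4:53030787-53159895, minus strand, 50 exons) had 29.4 and 33.4 in libraries 51 and 53 on day 0 and 77.4 and 63.1 in libraries 50 and 52. The genotypes did not overlap, although Abca1 was the least changed of the 6 genes. Its means were 31.4 ± 2.84 and 70.3 ± 10.2 (SD, n = 2 each), a 2.24-fold lower level and a difference of -1.13 (SE 0.39). With a pseudocount of 10 the difference was -0.95 and Abca1 was no longer called, and without library 50 it was -0.99, also without a call. By size of difference it ranked 165 of the 210 listed genes that were lower on day 0, where Apoa1 ranked 28, Abcg8 60, Npc1l1 68 and Abcg5 72.

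After DSS, and on the authors' scaling, the order of the genotypes for Abca1 was the opposite one. On day 7 the values were 606 and 459 in libraries 65 and 71 and 102 and 187 in libraries 67 and 68. Each Cre-positive library stood above each control library, with means of 533 ± 104 and 144 ± 60.4 (SD, n = 2 each). This was a 3.69-fold higher level and a difference of 1.93 (SE 0.78). This direction was that of the authors' scaling. With the libraries of day 7 set to equal sums over the listed genes, the difference of Abca1 was -0.49 and not called. Of the 128 genes listed on day 7, 117 were higher in Cre-positive IECs by genotype mean. Equal sums over such a list lower the differences by construction, so they cannot decide the direction. Among genes with a mean of at least 50 the difference stayed at 1.93 but was not called either. Equal sums moved the median of all listed genes by -2.41 on day 7 and by -0.61 on day 0. On the authors' scaling Abca1 ranked 93 of the 117 genes that were higher on day 7. The days may have been normalized separately, so no level of day 0 was compared with one of day 7.

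ABCA1 is also abundant in macrophages, where it exports cholesterol, and markers of several cell types were listed on day 7 as well. Of 14 neutrophil markers 9 were in the day 7 table, and on the authors' scaling all 9 were called higher in Efhd2 f/f Vil1 cre/+ IECs, with summed normalized counts of 18680 and 58550 in libraries 65 and 71 and 3885 and 6464 in libraries 67 and 68. From the list of 10 macrophage markers 2 were in the table, both called higher, with sums of 12720 and 13650 against 2596 and 4573. Of 5 red blood cell markers 4 were listed, and all 4 were called higher as well. Over all listed genes of day 7, 77.3% were called higher, and these marker counts are given beside that share. As a share of the summed normalized counts of all listed genes, the neutrophil markers took 4.54% and 9.53% in libraries 65 and 71 and 5.40% and 5.30% in libraries 67 and 68, and the macrophage markers 3.09% and 2.22% against 3.61% and 3.75%. The red blood cell markers took 1.01% and 0.65% against 0.78% and 1.1%. On that scale the neutrophil and red blood cell shares of the genotypes overlapped and the macrophage shares were lower in the Cre-positive libraries. The sums of all listed genes were 411504 and 614168 in libraries 65 and 71 and 71972 and 121940 in libraries 67 and 68. Most listed genes were higher in Cre-positive IECs, so these shares cannot say whether more or fewer such cells were present. The neutrophil and macrophage sums were lower in library 65 than in library 71. Abca1 and the red blood cell sum (4139 and 3992) were higher in library 65. In the control libraries these sums and Abca1 were all higher in library 68 than in library 67.

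Epithelial and stromal markers were among the called genes of day 7 as well. Of 12 surface colonocyte markers 3 were listed, with Clca4b (4.35) and Mal (1.92) called higher and Cyp2c55 (-2.14) called lower. The brush-border gene Slc7a9 (2.63) was called higher, and of 8 fibroblast markers 2 were listed and Fn1 (2.38) called higher. With equal sums over the listed genes the differences were 1.92 for Clca4b, -0.50 for Mal, -4.57 for Cyp2c55, 0.22 for Slc7a9 and -0.04 for Fn1. The part of any of these cells in the level of Abca1 was not tested.

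The 100 bases before the start of Abca1, on the minus strand of chr4:53159896-53159995, are printed because this promoter is known for an LXR element, a direct repeat of AGGTCA-like letters with 4 bases between (DR4). Capitals mark the match to that repeat.
Abca1: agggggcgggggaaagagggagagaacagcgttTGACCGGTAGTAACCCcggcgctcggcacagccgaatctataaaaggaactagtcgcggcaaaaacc

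The match begins at -67 on the strand opposite to the gene and departs from the repeat at 3 of 12 letters. With up to 3 departures allowed on either strand, a tolerance set after the Abca1 window had been seen, 21.9% of the 32544 RefSeq windows held a match. Nr0b2 held one too, at -238, and the windows of Abcg5, Abcg8, Npc1l1 and Apoa1 held none. An inverted repeat of AGGTCA with 1 base between (IR1), the form bound by FXR, with up to 2 departures, was in 1.14% of all windows and in none of the 7 windows of these 6 genes. The HNF4 letters CAAAGTCCA with up to 1 departure were in 8.51% of all windows and also in none of the 7. No match says only that these letters are not in this window.

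Nr0b2 (ENSMUSG00000037583, chr4:133553376-133556536, plus strand, 2 exons) was the only one of the 6 genes with a higher level in Efhd2 f/f Vil1 cre/+ IECs on day 0. It had 63.9 and 109.7 in libraries 51 and 53 and 9.80 and 9.78 in libraries 50 and 52. The Efhd2 f/f libraries were almost equal, and the spread lay between the Efhd2 f/f Vil1 cre/+ libraries. Means of 86.8 ± 32.4 and 9.79 ± 0.0149 (SD, n = 2 each) gave an 8.87-fold higher level and a difference of 2.97 (SE 0.43), rank 9 of the 99 genes that were higher.

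On day 7 Nr0b2 was at 1.02 and 2.05 in libraries 65 and 71 and at 18.8 and 49.7 in libraries 67 and 68. The order of the genotypes was thus opposite to that of day 0, again without overlap. The means were 1.54 ± 0.727 and 34.3 ± 21.9 (SD, n = 2 each) and the difference was -3.67 (SE 0.81), rank 2 of the 11 genes that were lower. The ratio of means was 22.3, but values near 1 and 2 normalized counts rest on very few reads, and the size of this ratio is uncertain. Of the 3 listed surface colonocyte markers of that day, Cyp2c55 (-2.14) was called lower and Clca4b (4.35) and Mal (1.92) higher. The only listed marker of 8 for Paneth cells, Defa24 (-3.77), was called lower. It stood at 0 in libraries 65 and 71 and at 40.1 and 3.52 in libraries 67 and 68. The part of these cells in the level of Nr0b2 was not tested. Among the 9 genes in both tables, 7 had opposite orders of the genotypes on the 2 days on the authors' scaling. Nr0b2 was the only one of these 7 that was higher on day 0 and lower on day 7. By genotype mean, 210 of 309 listed genes were lower on day 0 and 117 of 128 were higher on day 7, so the lists favour the reverse order.

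The 100 bases before the start of Nr0b2, on the plus strand of chr4:133553276-133553375, are printed for comparison with Abca1, with the TATA box letters TATAAA in capitals.
Nr0b2: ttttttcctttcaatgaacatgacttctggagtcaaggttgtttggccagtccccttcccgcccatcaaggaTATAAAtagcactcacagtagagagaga

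TATAAA began at -28 in Nr0b2 and at -29 in Abca1, and it was found in 13.6% of all windows. The shared promoter of Abcg5 and Abcg8 also held these letters, at -84 from the start of Abcg5, and the windows of Npc1l1 and Apoa1 did not.

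**Figure D3:**
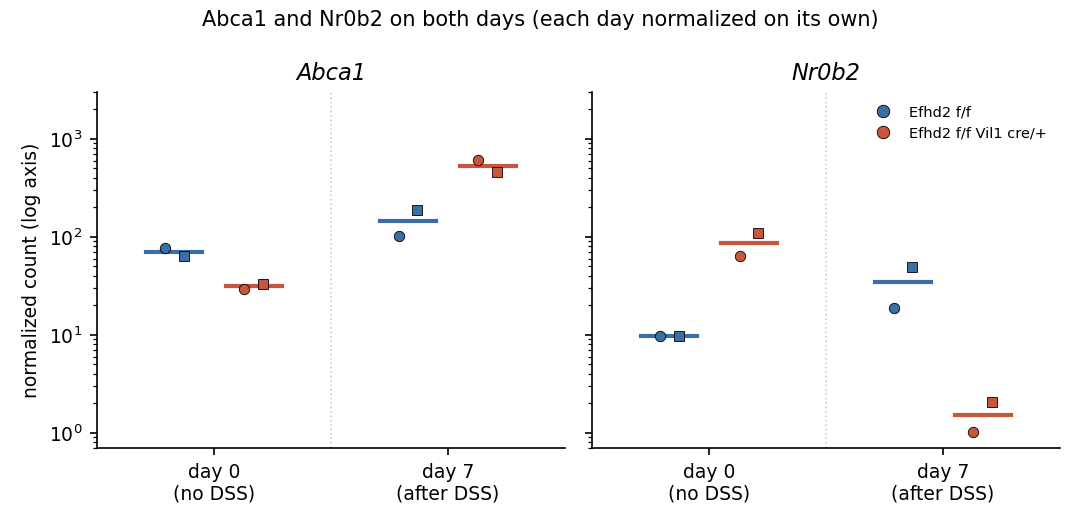
Normalized counts (log axis) of Abca1 and Nr0b2 in the 4 libraries of each day, with points for libraries and bars for means of 2. Abca1 is lower in Cre-positive IECs on day 0 and, under the authors' scaling though not with equal sums (-0.49), higher on day 7, while Nr0b2 is higher on day 0 and lower on day 7.

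Levels of different genes were compared as normalized counts per kb of exon length. In the Efhd2 f/f libraries of day 0 the order of the mean levels was Apoa1 at 37.4, Abcg5 at 29.5, Abcg8 at 17.4, Nr0b2 at 8.65, Abca1 at 6.78 and Npc1l1 at 6.29 per kb. Apoa1 and Abcg5 overlapped between libraries in this order, and so did Abca1 and Npc1l1. In the Cre-positive libraries Nr0b2 came first at 76.7 per kb, followed by Abcg5 at 8.20, Apoa1 at 5.89, Abcg8 at 4.49, Abca1 at 3.03 and Npc1l1 at 1.52. There only Apoa1 and Abcg8 overlapped. Nr0b2 thus moved from the fourth place to the first, and Apoa1 from the first to the third.

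The other genes of these pathways were seldom in the tables. Of 16 genes on a list of sterol efflux and LXR targets, 4 were in the day 0 table, and they were Abca1, Abcg5 and Abcg8, called lower, and Scd2, a stearoyl-CoA desaturase, called higher. Scd2 had 6962 and 8289 in libraries 51 and 53 and 2629 and 4812 in libraries 50 and 52, a difference of 1.09, which was 0.48 with equal sums over the listed genes. The median difference over these 4 genes was -1.47, where all listed genes of day 0 had a median of -1.17. The listed genes lower on day 0 had a median of -1.50 and those higher one of 1.45. On day 7 Abca1 was the only gene of this list in the table, at 1.93 where the genes higher on that day had a median of 2.58.

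Cholesterol synthesis was not represented, with 0 of 24 genes on a list of synthesis enzymes and SREBP2 targets in either table. From 20 apolipoprotein and chylomicron genes only Apoa1, and from 13 genes of sterol and fatty acid uptake only Npc1l1, were in the day 0 table, and none was in the day 7 table. None of 19 nuclear receptors and enterocyte regulators was listed on either day. Genes that are not in a table were not analysed here.

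Bile acid and FXR genes gave 2 of 22 on day 0. Beside Nr0b2 this was Cyp27a1, the mitochondrial sterol 27-hydroxylase, called lower at 196 and 240 in libraries 51 and 53 against 486 and 389 in libraries 50 and 52. Of 24 fatty acid oxidation and PPAR target genes, Angptl4, which encodes an inhibitor of lipoprotein lipase, was called higher on day 0. It had 89.2 and 130 in libraries 51 and 53 against 47.1 and 28.4 in libraries 50 and 52, a difference of 1.53 (0.93 with equal sums). Pdk4, a kinase that limits glucose oxidation, was the gene of that list called lower on day 7, with 441.5 and 467 in libraries 65 and 71 against 880 and 4031 in libraries 67 and 68, a difference of -2.05.

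Markers of other cells and segments were also listed on day 0, where 62.5% of all listed genes were called lower. Of 21 markers of the absorptive brush border, which the small intestine expresses more strongly than the colon, 4 were in the day 0 table and all 4 were called lower. These were the peptidases Anpep and Enpep, the fructose transporter Slc2a5 and the amino acid transporter Slc6a19, with summed normalized counts of 151 and 273 in libraries 51 and 53 and 1061 and 1183 in libraries 50 and 52. Of 8 Paneth cell markers 2 were listed. Lyz1, called lower, had 6.07 and 2.73 against 12.6 and 54.8, and Defa24, not called, was at 0 in libraries 51, 53 and 50 and at 86.9 in library 52.

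Lymphocyte and hormone cell markers were lower as well, among listed genes of which 62.5% were called lower. Of 12 T and NK cell markers 6 were listed and 5 called lower, with sums of 1077 and 1277 in libraries 51 and 53 and 3250 and 1991 in libraries 50 and 52. Of 12 enteroendocrine markers 4 were listed and all 4 called lower. The only listed markers of B and plasma cells (Ighd, -2.53), fibroblasts (Dcn, -1.73), endothelium (Pecam1, -1.13) and surface colonocytes (Aqp8, -1.15) were called lower too, while the red blood cell marker Alas2 (1.49) was called higher. No macrophage or neutrophil marker was in the day 0 table. The part of these cells in the levels of Abcg5, Abcg8, Npc1l1, Apoa1 and Abca1 was not tested.

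The libraries of one genotype also differed from each other. Between library 52 and library 50, Npc1l1 differed by 0.87 and Apoa1 by 0.69 on the log2 scale, while Abcg5, Abcg8 and Abca1 went the other way, at -0.22, -0.19 and -0.29. The Paneth cell markers were higher in library 52, Lyz1 by 2.03 and Defa24 by 6.46. The 4 brush-border markers did not move together, with 0.88 for Anpep, 0.11 for Enpep, -0.05 for Slc6a19 and -0.67 for Slc2a5. Of all listed genes on day 0, 35.3% were higher in library 52 than in library 50, and the median absolute difference was 0.53. Npc1l1 and Apoa1 were therefore among the minority that was higher in library 52, and without that library their genotype differences were those computed from library 50 alone, -1.40 and -2.14.

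**Figure D4:**
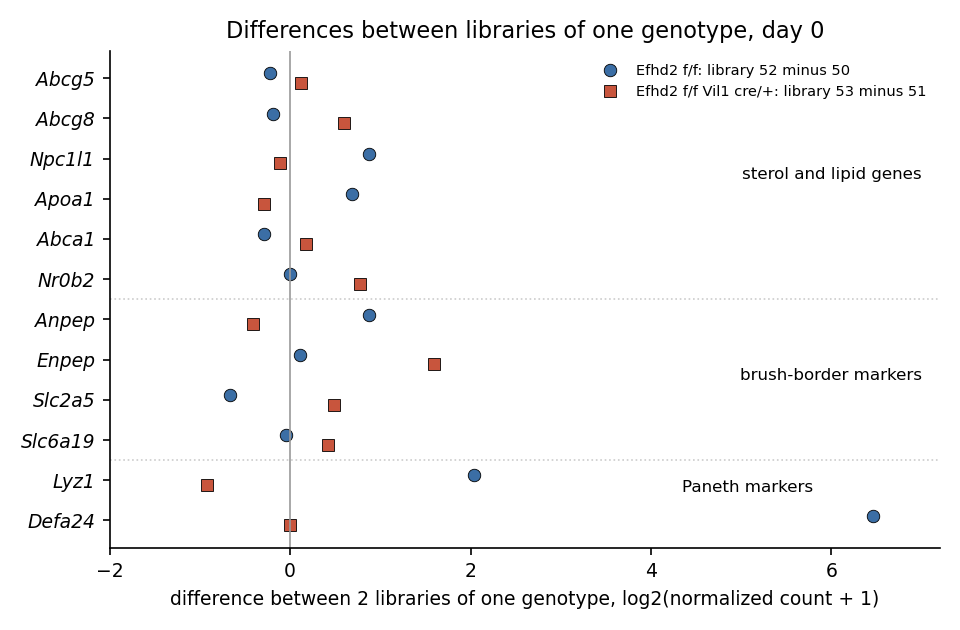
Difference between the 2 libraries of each genotype on day 0, in log2(normalized count + 1), for the 6 genes and for 4 brush-border and 2 Paneth cell markers. In Efhd2 f/f, Npc1l1, Apoa1 and both Paneth cell markers lie to the right, Abcg5, Abcg8 and Abca1 lie left of 0, and the brush-border markers range from -0.67 for Slc2a5 to 0.88 for Anpep.

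Between libraries 51 and 53 the 6 genes differed from -0.29 for Apoa1 to 0.77 for Nr0b2, with 0.60 for Abcg8 and 0.12 for Abcg5. All listed genes had a median absolute difference of 0.32 between these libraries. On day 7 library 68 was above library 67 by 0.87 for Abca1 and by 1.36 for Nr0b2, as were 77.3% of listed genes. Library 71 was below library 65 for Abca1, at -0.40, and above it for Nr0b2, at 0.59.

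Likeness of pattern was measured as the root mean square distance between centred log2 profiles over the 4 libraries of a day. Among the genes nearest to Abcg5 were Tat and Gm42141, both at 0.08, with Abcg8 at rank 13 and a distance of 0.18. For Abcg8 the nearest were Npy1r at 0.05, 2900052L18Rik at 0.05 and Cyp2d12 at 0.09, and Abcg5 had rank 15. The partner genes were thus close to each other without being the closest listed pair.

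Npc1l1 was nearest to Nos2 and Etnppl, both at 0.20, and Msln at 0.22, and Apoa1 to the brush-border gene Anpep at 0.15, Rn7sk at 0.17 and Ccdc162 at 0.22. Npc1l1 and Apoa1 were 0.33 apart, at rank 13 seen from Npc1l1 and rank 12 seen from Apoa1. Abca1 on day 0 was nearest to Man1c1 at 0.03, Slc18a1 at 0.04 and Hcst at 0.06. With so many genes lower in the 2 Cre-positive libraries, small distances were common among them.

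Nr0b2 had no listed gene as close as those. Its nearest on day 0 were the metallothionein gene Mt1 at 0.31, the chaperone gene Hsph1 at 0.43 and B3gnt7 at 0.48, and on day 7 Nacad at 0.62, AI506816 at 0.76 and Cyp2c55 at 0.78. On day 7 Abca1 was nearest to the cytokine gene Osm at 0.13, the neutrophil attractant gene Cxcl2 at 0.15 and Mal at 0.16. Distances over 4 libraries describe these libraries and were not tested.

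Along the chromosomes the other genes had no close listed neighbour. The nearest on day 0 were Gm17300 at 1.2 Mb and Man1c1 at 1.01 Mb from Nr0b2, with differences of 1.54 and -1.11, and Emid1 at 1.06 Mb from Npc1l1, with -0.98. Abca1 had Col27a1 at 10.1 Mb, with -1.99. Only Abcg5 and Abcg8 adjoined each other in the table.

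**Figure D5:**
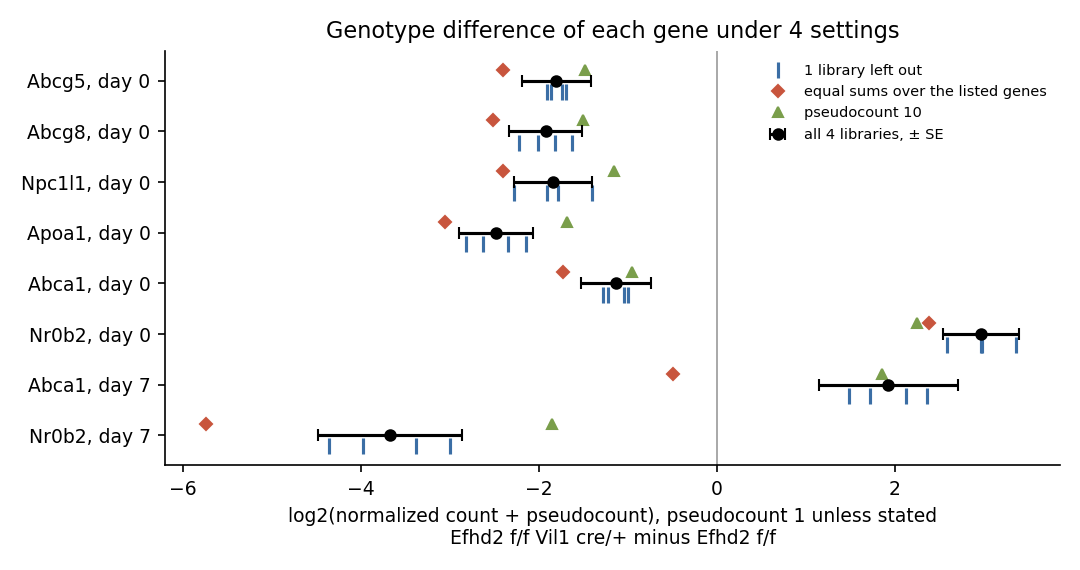
Genotype differences in log2, Efhd2 f/f Vil1 cre/+ minus Efhd2 f/f, with the standard error (black), with each library left out in turn (blue), with equal sums over the listed genes (red) and with a pseudocount of 10 (green). All estimates of one gene lie on one side of 0 except those of Abca1 on day 7, which has -0.49 with equal sums. Leaving out a library could not turn a sign, because the genotypes did not overlap.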

How the data were processed

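RNA of colonic IECs was sequenced in 8 libraries. Per the submitters' processing notes, CASAVA 1.8, fastp, HISAT2 2.0.5, featureCounts 1.5.0-p3 and DESeq2 1.20.0 were used with GRCm38 (mm10). The signal deposited by the authors is a normalized count per gene and library, in a table for each day that holds only genes past the authors' thresholds on fold change and adjusted p-value. Whether the days were scaled together or separately was not established. The authors' own fold changes and p-values in these tables were not used. The values are not whole reads, and whole reads were not recovered. Depth is therefore unknown, and no counting interval was computed.

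Columns name genotype and day, and their library numbers are in no label, so each column served as a library of its group. The labels do not say that libraries came from separate animals, so the spread may be technical. Values under 1e-06 (25 on day 0 and 14 on day 7) were set to 0. Genotypes were compared on log2(normalized count + 1) with limma 3.58.1 (R 4.3.3), and p-values were adjusted by Benjamini-Hochberg across all genes of a day's table. The procedure was tested on simulated data. An exact permutation test of 2 against 2 libraries cannot go below p = 0.333 and was not used. Because listed genes were selected on the same contrast, calls are descriptive. Gene and promoter sequences were matched by symbol to RefSeq (GRCm38.p6), for 6 of 6 genes, and exons to GENCODE M21.

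The genes described and all gene lists were chosen with earlier results of these data known. Named genes are these 6, Efhd2, the listed genes of the pathway lists, the 3 genes nearest in pattern and the nearest listed genes on each side. One gene that this rule names is not reported here. Cell marker genes are named as members of their lists. Alternatives were pseudocounts of 0.1 and 10, a mean of at least 50, equal sums over the listed genes, and each library left out. Python 3.11.15, pandas 2.3.3, numpy 2.4.6 and matplotlib 3.10.9 were used.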

Additional observations from a re-analysis of the deposited data

Results flagged for a closer look

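Abca1 and Nr0b2 had opposite orders of the genotypes on the 2 days, with every Efhd2 f/f Vil1 cre/+ library on one side of every Efhd2 f/f library on day 0 and on the other side on day 7. The genotypes also did not overlap in 99% of all listed genes on day 0 and 99.2% on day 7. Of the 9 genes listed on both days, 7 had opposite orders. By genotype mean, 210 of 309 listed genes were lower on day 0 and 117 of 128 were higher on day 7. The make-up of the lists thus favours lower on day 0 with higher on day 7, the order of Abca1, and nothing is read from the count. For Abca1 the difference was -1.13 on day 0 and 1.93 on day 7, the latter -0.49 with equal sums over the listed genes. For Nr0b2 it was 2.97 on day 0 and -3.67 on day 7. The difference between the days was not tested, because the days hold different libraries and may have been normalized separately.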

How the results depend on the processing

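A pseudocount of 0.1 moved none of the 12 results beyond the spread or by over 1.5 times. With a pseudocount of 10 the day 0 differences were -1.48 for Abcg5, -1.50 for Abcg8, -1.15 for Npc1l1, -1.68 for Apoa1, -0.95 for Abca1 and 2.25 for Nr0b2, and Nr0b2 had -1.85 on day 7. With equal sums over the listed genes they were -2.40 for Abcg5, -2.51 for Abcg8, -2.40 for Npc1l1, -3.05 for Apoa1, -1.73 for Abca1 and 2.39 for Nr0b2 on day 0. On day 7 that scaling gave -0.49 for Abca1, which turned its direction, and -5.74 for Nr0b2, and it cut the genes called higher to 30 on day 0 and 5 on day 7. Most genes listed on day 7 were higher in Cre-positive IECs, so equal sums lower the differences by construction and cannot decide a direction. Without genes of a mean under 50, 120 genes were called lower on day 0, and 65 higher and 6 lower on day 7. Abcg8, Npc1l1, Apoa1 and Nr0b2 (both days) then had no value.

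The call of Abca1 was lost with a pseudocount of 10 on day 0, and with equal sums or a mean of at least 50 on day 7, and no other of the 6 genes that had a value lost its call under these settings. With each library left out in turn, no difference changed sign. This was fixed in advance, because the genotypes did not overlap for any of these genes, and nothing is read from it. The ranges on day 0 were -1.91 to -1.69 for Abcg5, -2.22 to -1.62 for Abcg8, -2.28 to -1.40 for Npc1l1, -2.82 to -2.14 for Apoa1, -1.28 to -0.99 for Abca1 and 2.59 to 3.36 for Nr0b2. On day 7 they were 1.49 to 2.36 for Abca1 and -4.35 to -3.00 for Nr0b2. The lone library of a group was assumed to vary like the other group. On day 0 limma then called 0 to 78 genes higher and 0 to 159 lower, and the calls were 0 without library 50, 51 or 53 and the highest counts without library 52. On day 7 it called 0 genes in either direction without any one library, where an unadjusted p-value under 0.05 held for 35 to 81 higher and 1 to 7 lower genes. No paired analysis was possible because the library numbers in the tables are in no label and are not shared between genotypes.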
